A study of Mus musculus with 9 samples.

Results

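RNA levels of 46 DNA replication and S phase genes were compared among mouse monocyte subsets grown in vitro. The genes were chosen by symbol from their known roles in copying DNA and in entry into S phase. Earlier results of these data were known at that time, so the list is not independent of the data. All 46 were found among the 46517 gene IDs of the expression table, and all 46 passed the filter on low counts that left 14059 genes for testing. The 9 libraries comprised 3 of patrolling monocytes (pMo), 3 of intermediate monocytes (intMo) and 3 of conventional monocytes (cMo), numbered 0, 1 and 2 within each subset. All came from primary wild-type cells of C57BL/6 background, and no treatment separated the subsets. The series title places the pMo in bone marrow cultures on OP9-DLL1, stromal feeder cells engineered to present Delta-like 1 to Notch receptors. The sources used here do not give the sort, the age of the mice or the days in culture. Any difference in culture between the subsets would run with subset and could not be told apart from it. The design text repeats cMo and leaves out pMo, so the subset names were taken from the sample labels. Nothing states that the libraries came from separate cultures or animals, so p-values measure only the spread between these libraries, which may be technical.

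A cell copies its genome once per division, in S phase. In G1, the loaders Cdc6 and Cdt1 place MCM helicase rings on origins. Cyclin E and E2F factors then commit the cell to S phase, Cdc45 and GINS turn the rings into moving helicases, and polymerases, the sliding clamp PCNA and nucleotide-making enzymes copy the strands. Many of these genes are E2F targets whose RNA is high in dividing cells and low in resting ones. In blood, conventional monocytes are regarded as precursors of patrolling monocytes, and mature monocytes divide little.

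Each library held between 18455116 and 29985684 estimated counts, and the lowest value of any of the 46 genes was 46 counts. Levels are given as CPM, that is, counts scaled to library size after TMM. Summed levels of subset markers followed the labels. Of 9 patrolling monocyte markers, 7 were called higher and 1 lower in intMo than in cMo (edgeR, adjusted p under 0.05). Of all genes tested, 14.0% were called higher and 10.4% lower in that comparison. The summed level of 9 patrolling monocyte markers was 8888 to 11586 CPM in pMo, 3080 to 4081 CPM in intMo and 664 to 822 CPM in cMo. That of 7 conventional monocyte markers was 598 to 1093 CPM in pMo, 1100 to 2469 CPM in intMo and 5677, 9912 and 10382 CPM in cMo libraries 0, 1 and 2. That of 6 general monocyte markers was 9684 to 11877 CPM in pMo, 10288 to 11151 CPM in intMo and 9455, 16747 and 20877 CPM in cMo libraries 0, 1 and 2. Of these 6, 2 were called lower and 3 higher in pMo than in cMo, against 15.9% and 17.2% of all genes. Library 0 of each subset stood apart from libraries 1 and 2. The correlation of log2 CPM across genes was 0.951 to 0.975 for pairs with library 0 and 0.986 to 0.990 for libraries 1 and 2. Results that rest on library 0 are therefore given with and without it. Exons of 14 of the 46 genes overlap another gene, 12 of them on the opposite strand, and the strand setting of the counting is not given, so the counts of these genes are uncertain. The 14 genes are Ccne2, Cdc45, Chaf1a, Fen1, Gins2, Lig1, Mcm7, Pole, Pole2, Rfc2, Rfc4, Rfc5, Rpa1 and Tk1.

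S phase genes were lower in pMo and in intMo than in cMo. The means ran in the order pMo below intMo below cMo for 45 of 46 genes, the exception being E2f2, but only 2 genes were called between pMo and intMo. Against cMo, 45 of 46 were called lower in pMo (edgeR, adjusted p under 0.05), against 15.9% of all genes tested that were called lower. None was called higher, against 17.2% of all genes, and none was higher by unadjusted p or by DESeq2 either. In all 46 genes every pMo library lay below every cMo library, a pattern seen in 23.5% of all genes. The median log2 change was -2.09 (range -3.70 to -0.76), against 0.03 over all genes tested. In bulk RNA, fewer cells in S phase and less of these RNAs per cell cannot be told apart.

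In intMo, 39 of 46 genes were called lower than in cMo, against 10.4% of all genes, with a median log2 change of -1.33 against -0.01 over all genes. No gene was called higher, against 14.0% of all genes, and none was higher by unadjusted p or by DESeq2. Every intMo library lay below every cMo library for all 46 genes, a pattern seen in 20.1% of all genes. The 7 genes not called were Gins3, Gins4, Mcm10, Pola1, Rfc5, Rrm1 and Rrm2, with log2 changes of -0.66, -0.47, -1.37, -0.64, -0.83, -1.27 and -1.62. The count was 22 without cMo library 0, and 24 when intMo and cMo were fitted without the pMo libraries. With the library number as a block in that fit, chosen after seeing the data, it was 2. Of all genes, 1467 were called lower with all libraries, and 950, 782 and 330 in these fits. An F test over the 3 subsets called 46 of 46 genes, against 33.0% of all genes (edgeR).

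**Figure D1:**
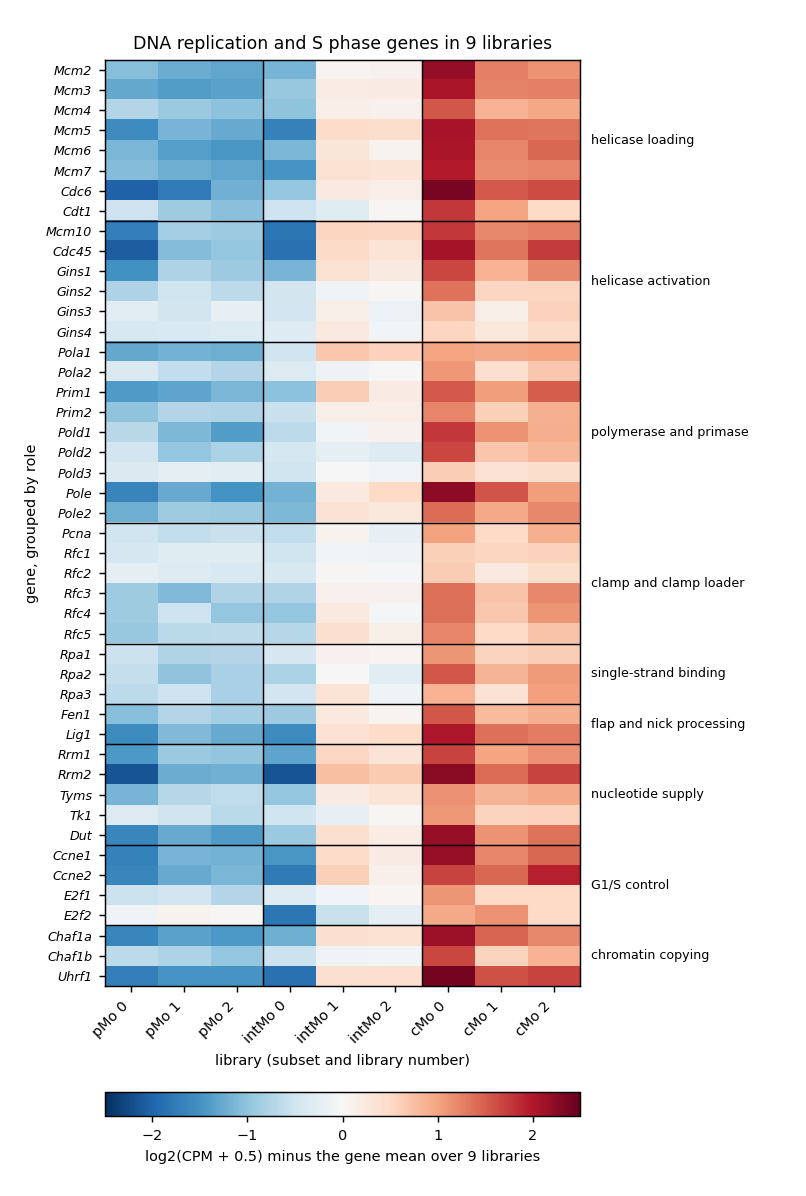
Level of each of the 46 genes (rows, grouped by role) in each of the 9 libraries (columns, pMo, intMo and cMo), as log2(CPM + 0.5) minus the gene's mean over the 9 libraries, with red high and blue low. Columns of pMo are blue, those of cMo red, and intMo library 0 resembles pMo in colour while intMo libraries 1 and 2 lie between.

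Promoter windows were available for 38 of the 46 genes (RefSeq, GRCm38.p6, 250 bases before to 50 bases after a RefSeq start). For the 6 of them with several starts, E2f2, Fen1, Lig1, Mcm7, Pold2 and Uhrf1, a match in any window counted. Ccne2, Gins1, Gins2, Gins4, Mcm4, Pole, Prim2 and Rfc2 had none. Windows were searched on both strands for the E2F motif letters TTTGGCGC, TTTCCCGC, TTTGCCGC and TTTCGCGC, whose matches can overlap each other. At least 1 match was found for 15 of 38 genes (39.5%), against 469 of 10450 of all genes tested with a window (4.49%). Among genes with a single window, a choice made after seeing the data, it was 11 of 32 (34.4%), against 4.20%. The 15 genes were Cdc6, Cdt1, E2f2, Gins3, Lig1, Mcm3, Mcm5, Mcm6, Mcm7, Pola1, Pold1, Pold3, Pole2, Rfc3 and Uhrf1. In the 250 bases before the start alone, 8 of 38 genes had a match (21.1%), against 3.72% of genes tested. Stretches of 80 bases before a RefSeq start are shown for 5 of the 8 genes with such a match. Each is read 5′ to 3′ on the strand of its gene, with E2F matches in capitals. They lie at chr11:98907977-98908056 (Cdc6, plus strand), chr8:75109322-75109401 (Mcm5, plus strand), chr1:128359741-128359820 (Mcm6, minus strand), chrX:93632250-93632329 (Pola1, minus strand) and chr17:56304092-56304171 (Uhrf1, plus strand). The gene bounds given with the expression values are those of GENCODE, whose first start can lie further upstream, so the Cdc6 and Uhrf1 stretches fall inside those bounds.
Cdc6: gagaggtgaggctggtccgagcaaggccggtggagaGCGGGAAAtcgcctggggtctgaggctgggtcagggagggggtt
Mcm5: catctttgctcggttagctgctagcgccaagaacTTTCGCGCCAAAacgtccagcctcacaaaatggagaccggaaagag
Mcm6: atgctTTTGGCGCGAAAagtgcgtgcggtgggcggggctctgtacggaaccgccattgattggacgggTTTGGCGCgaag
Pola1: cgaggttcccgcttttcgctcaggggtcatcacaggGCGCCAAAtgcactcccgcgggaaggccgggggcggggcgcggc
Uhrf1: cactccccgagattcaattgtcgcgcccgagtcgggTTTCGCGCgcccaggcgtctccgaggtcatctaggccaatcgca

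In Mcm5, 2 matches on opposite strands overlap to form the run in capitals, which starts 153 bases before the RefSeq start. Mcm6 held 3 matches, of which 2 overlap and the third starts 47 bases before the start. The Cdc6 and Pola1 matches read as the reverse complement of the motif. A match describes letters in the window and is not evidence of binding.

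**Figure D2:**
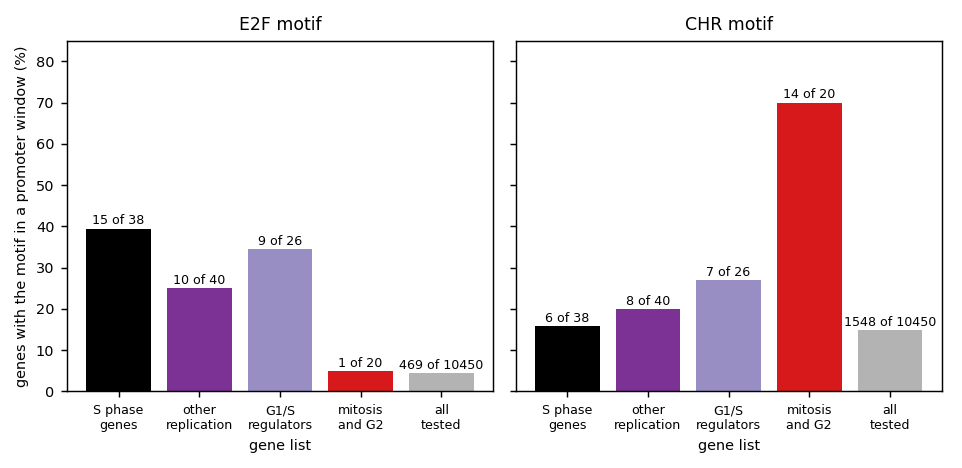
Percent of genes with an E2F motif (left) or a CHR motif, TTTGAA (right), in a promoter window, in 5 gene sets, with the number of genes above each bar. E2F matches were found for 39.5% of S phase genes and 5.0% of mitosis genes, and CHR matches for 15.8% and 70.0%.

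The CHR motif, TTTGAA, is a promoter element known from genes of G2 and mitosis. It was found for 6 of 38 S phase genes (15.8%), 14 of 20 mitosis genes (70.0%) and 14.8% of genes tested. In the 250 bases before the start alone it was found for 15.8% of S phase genes, 40.0% of mitosis genes and 13.3% of genes tested. E2F matches were found for 1 of 20 mitosis genes, 10 of 40 other replication genes and 9 of 26 G1/S regulators (34.6%). All 9 regulators had their match before the start, where 21.1% of the S phase genes had one. The CCAAT box, CCAAT, was found for 22 of 38 S phase genes (57.9%), 17 of 20 mitosis genes (85%) and 42.9% of genes tested.

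Of the 8 helicase loading genes, all 8 were called lower in pMo than in cMo and all 8 lower in intMo than in cMo, with median log2 changes of -2.88 and -1.64. In intMo against cMo the count was 6 without cMo library 0, without pMo library 1 or without pMo library 2. Cdc6 (chr11:98907801-98923940, GRCm38), the ATPase that recruits MCM rings to origins, had 2.38, 3.01 and 4.59 CPM in pMo libraries 0, 1 and 2, 5.52, 13.5 and 12.7 CPM in intMo, and 60.3, 33.6 and 35.7 CPM in cMo. The subsets did not overlap, and cMo library 0 was the highest of all. With all 9 libraries, TMM scaling and no block, Cdc6 was the only gene of the 46 called lower in each of the 3 comparisons (edgeR). With upper quartile scaling, Dut, Mcm3 and Prim1 were also called lower in each. The log2 change of Cdc6 was -3.70 ± 0.42 (SE) in pMo against cMo (edgeR, adjusted p = 0.000336) and -2.03 ± 0.39 in intMo against cMo (adjusted p = 0.0061). In pMo against intMo it was -1.67 ± 0.39 (adjusted p = 0.0444), and this call was lost without any of the pMo libraries, intMo library 1 or 2, or cMo library 1 or 2, at an adjusted p of up to 0.182. It was also lost with the library number as a block (adjusted p = 0.0808) and when pMo and intMo were fitted alone (adjusted p = 0.0585, edgeR). Cdc6 in pMo was 7.71% of its cMo level, the lowest share of the 46 genes.

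Mcm7 (chr5:138164583-138172422), a subunit of the ring, had the highest level per length of the loading genes. It had 41.8, 38.2 and 36.1 CPM in pMo libraries 0, 1 and 2, 31.8, 116 and 114 CPM in intMo, and 355, 203 and 209 CPM in cMo. Library 0 of intMo lay below every pMo library, while intMo libraries 1 and 2 lay above them. Its log2 change was -2.72 ± 0.45 in pMo against cMo (edgeR, adjusted p = 0.00225) and -1.55 ± 0.43 in intMo against cMo (adjusted p = 0.0308). The second of these calls was lost without pMo library 1, pMo library 2 or cMo library 0, at an adjusted p of up to 0.0984, and with the library number as a block (adjusted p = 0.0621).

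All 6 ring subunits, Mcm2 to Mcm7, were called lower in pMo and in intMo than in cMo. The Mcm5 call in intMo against cMo was lost without any 1 library other than intMo library 0 or 1 (edgeR, adjusted p up to 0.117), and with the library number as a block (adjusted p = 0.0563). Their mean level in pMo was 12.8% to 23.9% of that in cMo, with Mcm5 the lowest share and Mcm4 the highest, and in intMo 28.0% to 40.1%. Per kilobase of transcript, their levels ran from 7.08 CPM per kb (Mcm2) to 17.96 (Mcm7) in pMo, 14.1 (Mcm2) to 40.5 (Mcm7) in intMo, and 40.2 (Mcm4) to 119 (Mcm5) in cMo. The highest subunit stood 2.54 times the lowest in pMo, 2.87 times in intMo and 2.97 times in cMo. Cdt1, which loads the rings together with Cdc6, averaged 20.3 ± 3.94 CPM in pMo, 30.1 ± 5.85 CPM in intMo and 82.3 ± 37.6 CPM in cMo (SD, n = 3 each).

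All 6 helicase activation genes were called lower in pMo than in cMo, and 3 of 6 lower in intMo than in cMo. In intMo against cMo all 6 had a negative log2 change and were lower at an unadjusted p under 0.05 and by DESeq2. The count of 3 was 1 without cMo library 0 or 2, intMo library 2 or pMo library 1 or 2, and 2 without intMo library 0. Cdc45 (chr16:18780447-18811987), the helicase cofactor, had 4.03, 8.47 and 9.22 CPM in pMo, 4.72, 26.1 and 23.5 CPM in intMo and 79.5, 47.8 and 63.2 CPM in cMo libraries 0, 1 and 2. Library 0 was the lowest in pMo and in intMo, and the highest in cMo. Cdc45 fell by 3.13 ± 0.59 on the log2 scale in pMo against cMo (edgeR, adjusted p = 0.004). Gins4 (chr8:23226616-23237659), a subunit of the GINS complex, had 23.6, 23.9 and 24.5 CPM in pMo, 24.9, 37.3 and 29.8 CPM in intMo and 45.6, 37.8 and 44.1 CPM in cMo. The pMo libraries lay close together and below all intMo libraries. Gins4 changed by -0.82 ± 0.16 on the log2 scale in pMo against cMo (edgeR, adjusted p = 0.0048). The 4 GINS subunits differed in share, as Gins1 in pMo was 18.6% of its cMo level, Gins2 34.7%, Gins3 55.4% and Gins4 56.5%. The Gins3 call in pMo against cMo was lost without pMo library 1 and without cMo library 2. Mcm10, which helps fire loaded helicases, averaged 8.52 ± 2.65 CPM in pMo, 20.1 ± 13.04 CPM in intMo and 52.0 ± 12.1 CPM in cMo (SD, n = 3 each).

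Polymerase and primase genes were all lower in pMo than in cMo (9 of 9 called), and 8 of 9 were called lower in intMo than in cMo, which was 5 without cMo library 0. Pole (chr5:110286306-110337474), the catalytic subunit of the leading strand polymerase epsilon, had 5.42, 7.25 and 6.08 CPM in pMo libraries 0, 1 and 2, 7.72, 21.4 and 25.8 CPM in intMo, and 86.6, 54.6 and 37.6 CPM in cMo. No subset overlapped another. Pole changed by -3.25 ± 0.46 on the log2 scale in pMo against cMo (edgeR, adjusted p = 0.00108). Pold3 (chr7:100082111-100121565), an accessory subunit of polymerase delta, had 38.7, 42.5 and 41.3 CPM in pMo, 34.9, 50 and 47.6 CPM in intMo and 77.1, 64.0 and 67.9 CPM in cMo. The pMo and intMo libraries overlapped, and both lay below cMo. The log2 change of Pold3 was -0.77 ± 0.15 in pMo against cMo (edgeR, adjusted p = 0.00524). The other polymerase delta subunits changed more in this comparison, Pold1 by -2.39 ± 0.30 and Pold2 by -1.93 ± 0.27.

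Pola1 (chrX:93304767-93632155), the catalytic subunit of the polymerase alpha that extends the primers, was singled out after its values were seen, as 1 of the 2 genes called lower in pMo than in intMo. It had 12.8, 13.7 and 13.3 CPM in pMo libraries 0, 1 and 2, 22.4, 50.9 and 47.6 CPM in intMo, and 63.6, 61.2 and 63.3 CPM in cMo. The pMo libraries and the cMo libraries were each tightly grouped, and intMo libraries 1 and 2 lay nearer to cMo. Pola1 in intMo was 64.3% of its cMo level, and in pMo 21.2%. Its log2 change was -1.60 ± 0.27 in pMo against intMo (edgeR, adjusted p = 0.0104) and -2.24 ± 0.27 in pMo against cMo (adjusted p = 0.00046). In intMo against cMo it was -0.64 ± 0.26 (adjusted p = 0.103). The call in pMo against intMo was lost without pMo library 1 or without pMo library 2, at an adjusted p of up to 0.0569. Of its partners in the same complex, Prim1, the catalytic primase subunit, in intMo was 40.2% of its cMo level, Prim2 50.5% and Pola2 53.3%.

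**Figure D3:**
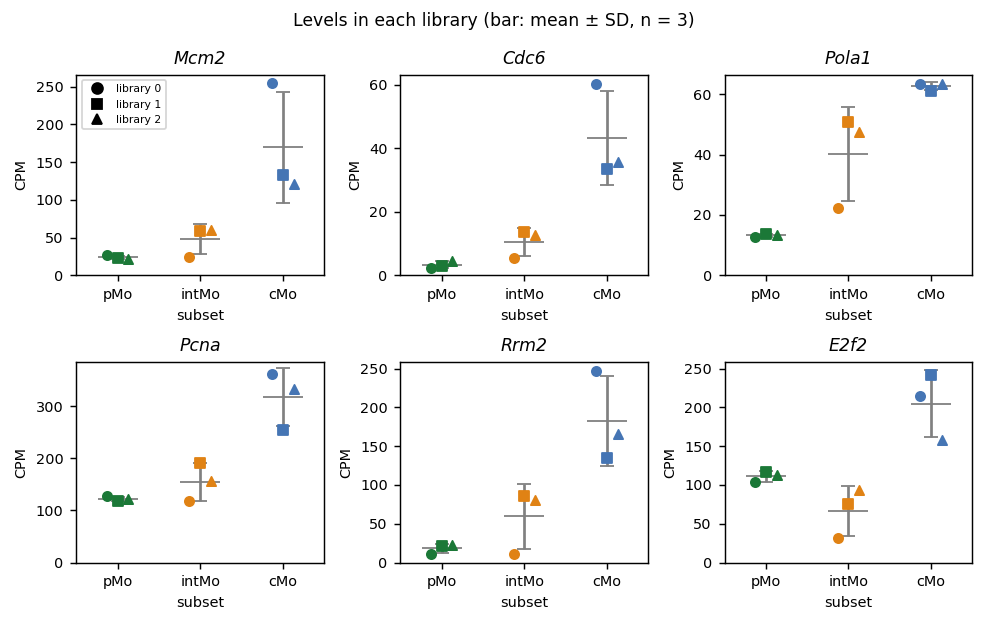
CPM of 6 genes in each library (circle library 0, square library 1, triangle library 2) of pMo, intMo and cMo, with grey bars for the mean ± SD of 3 libraries. Pola1 in intMo libraries 1 and 2 lies nearer to cMo than to pMo, and E2f2 is lower in every intMo library than in every pMo library.

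All 6 clamp and clamp loader genes were called lower in pMo than in cMo, with a median log2 change of -1.49, and 5 of 6 lower in intMo than in cMo, which was 3 without cMo library 0. Pcna (chr2:132249162-132253314), the sliding clamp that tethers polymerases, had 127, 118 and 122 CPM in pMo libraries 0, 1 and 2, 118, 190.5 and 157 CPM in intMo, and 363, 255 and 333 CPM in cMo. The pMo values were close together and the cMo values lay above all others. The log2 change of Pcna was -1.38 ± 0.19 in pMo against cMo (edgeR, adjusted p = 0.000991) and -1.03 ± 0.19 in intMo against cMo (adjusted p = 0.00566). Per length, Pcna was the highest of the 46 genes in each subset, at 80.5 CPM per kb in pMo, 102 in intMo and 209 in cMo. Rfc3 (chr5:151642756-151651242), a clamp loader subunit, had 6.29, 5.36 and 7.04 CPM in pMo, 6.97, 13.2 and 13.1 CPM in intMo and 32.4, 20.1 and 28.7 CPM in cMo. Its intMo library 0 lay inside the pMo range. The log2 change of Rfc3 was -2.12 ± 0.28 in pMo against cMo (edgeR, adjusted p = 0.000745). The large subunit Rfc1 and the small subunit Rfc2 kept more, at 53.1% and 59.0% of the cMo level in pMo, and Rfc2 had the highest share of the 46 genes.

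The single-stranded DNA binding proteins Rpa1, Rpa2 and Rpa3, which coat unwound strands, were each called lower in pMo and in intMo than in cMo. Rpa1 (chr11:75298166-75348324) had 63.2, 54.0 and 55.0 CPM in pMo libraries 0, 1 and 2, 67.9, 98.9 and 95.6 CPM in intMo, and 198, 134 and 140 CPM in cMo. Rpa2 (chr4:132768332-132778752) had 17.5, 13.1 and 15.0 CPM in pMo, 15.2, 26.8 and 21.8 CPM in intMo and 79.2, 48.4 and 56.7 CPM in cMo. The subsets did not overlap for Rpa1, whereas intMo library 0 lay inside the pMo range for Rpa2. Log2 changes in pMo against cMo were -1.46 ± 0.20 for Rpa1 and -2.01 ± 0.25 for Rpa2 (edgeR, adjusted p = 0.000798 and 0.000567). Rpa3 without the libraries numbered 0 was not called in intMo against cMo (edgeR, adjusted p = 0.101), and neither was Rfc2 (adjusted p = 0.0506). The Rpa3 call was also lost without any 1 of pMo libraries 1 and 2, intMo libraries 0 and 2, and cMo libraries 0 and 2 (adjusted p up to 0.107).

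Both genes that process Okazaki fragments were called lower in pMo and in intMo than in cMo. Fen1 (chr19:10199132-10204169), the flap endonuclease, had 26, 33.1 and 30.3 CPM in pMo libraries 0, 1 and 2, 29.1, 65.0 and 57.5 CPM in intMo, and 161, 95.3 and 104 CPM in cMo. Lig1 (chr7:13277283-13311433), the ligase that seals the nicks, had 14.6, 20.4 and 18.3 CPM in pMo, 14.7, 57.7 and 61.4 CPM in intMo and 183, 117 and 109 CPM in cMo. For both, intMo library 0 lay inside the pMo range and intMo libraries 1 and 2 lay between pMo and cMo. Log2 changes in pMo against cMo were -2.01 ± 0.31 for Fen1 and -2.94 ± 0.48 for Lig1 (edgeR, adjusted p = 0.0015 and 0.00214). Without cMo library 0 neither gene was called in intMo against cMo (edgeR, adjusted p = 0.0526 for Fen1 and 0.101 for Lig1). The Lig1 call there was also lost without pMo library 1 or 2 or cMo library 1 or 2.

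Nucleotide supply genes were all called lower in pMo than in cMo (5 of 5), and 3 of 5 lower in intMo than in cMo. The count in intMo against cMo was 2, with Tyms lost, without any 1 of the cMo libraries or without pMo library 1 or 2. Rrm2 (chr12:24708241-24714146), the small subunit of ribonucleotide reductase, had 11.1, 21.4 and 22 CPM in pMo libraries 0, 1 and 2, 11.1, 86.2 and 81.1 CPM in intMo, and 247, 135 and 165 CPM in cMo. Library 0 of intMo was as low as library 0 of pMo. The log2 change of Rrm2 was -3.33 ± 0.67 in pMo against cMo (edgeR, adjusted p = 0.00562) and -1.62 ± 0.63 in intMo against cMo (adjusted p = 0.0923). Rrm1, the large subunit of the same enzyme, kept a larger share in pMo (18.7% of cMo, against 9.95% for Rrm2). Dut, which removes dUTP, changed by -3.14 ± 0.40 in pMo against cMo, thymidylate synthase Tyms by -1.83 ± 0.31 and thymidine kinase Tk1 by -1.27 ± 0.19. Tk1 in pMo was 41.4% of its cMo level.

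Chromatin copying genes had a median log2 change of -3.18 in pMo against cMo, with 3 of 3 called, and -1.64 in intMo against cMo, with 3 of 3 called. Uhrf1 (chr17:56303321-56323486), which guides maintenance DNA methylation at the fork, had 10.6, 12.5 and 12.6 CPM in pMo libraries 0, 1 and 2, 9.38, 47.4 and 48.1 CPM in intMo, and 190.4, 108 and 117 CPM in cMo. Library 0 of intMo was the lowest of the 9. The log2 change of Uhrf1 was -3.54 ± 0.55 in pMo against cMo (edgeR, adjusted p = 0.00164) and -1.98 ± 0.51 in intMo against cMo (adjusted p = 0.0229), the second lost without cMo library 0 (adjusted p = 0.0707). The Chaf1a call in intMo against cMo was lost there too (adjusted p = 0.0631), which left 1 of 3. Of the chromatin assembly factor subunits, which place histones on new DNA, Chaf1a in pMo was 11.04% and Chaf1b 25.9% of the cMo level.

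Of the 4 G1/S control genes, 3 were called lower in pMo than in cMo and 4 lower in intMo than in cMo. The count of 4 was 2, with Ccne1 and Ccne2 lost, without cMo library 0 or intMo library 2. Ccne2 (chr4:11191351-11204779), a cyclin E, had 2.75, 3.71 and 4.07 CPM in pMo libraries 0, 1 and 2, 2.47, 14.6 and 10.4 CPM in intMo, and 32.0, 26.6 and 37.9 CPM in cMo. Its intMo library 0 lay below every pMo library. The log2 change of Ccne2 was -3.20 ± 0.53 in pMo against cMo (edgeR, adjusted p = 0.00229), close to the -3.17 ± 0.50 of Ccne1. E2f1, an activating E2F factor, changed by -1.32 ± 0.19 in pMo against cMo (edgeR, adjusted p = 0.00117).

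E2f2 (chr4:136172394-136196057), another activating E2F, had its lowest mean in intMo. It had 104, 117 and 113 CPM in pMo libraries 0, 1 and 2, 31.1, 75.2 and 93.1 CPM in intMo, and 215, 242 and 157 CPM in cMo. The subsets did not overlap, and every pMo library lay above every intMo library, a pattern seen in 14.8% of all genes. E2f2 was lower in intMo than in cMo, with a log2 change of -1.62 ± 0.35 (edgeR, adjusted p = 0.0102). Its log2 change in pMo against intMo was 0.74 ± 0.34 (edgeR, adjusted p = 0.285), and without the libraries numbered 0 it was 0.45 (adjusted p = 0.206). In pMo against cMo it was -0.88 ± 0.34 (adjusted p = 0.0768), the only one of the 46 genes not called in that comparison. It was called there by DESeq2 and without the libraries numbered 0.

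**Figure D4:**
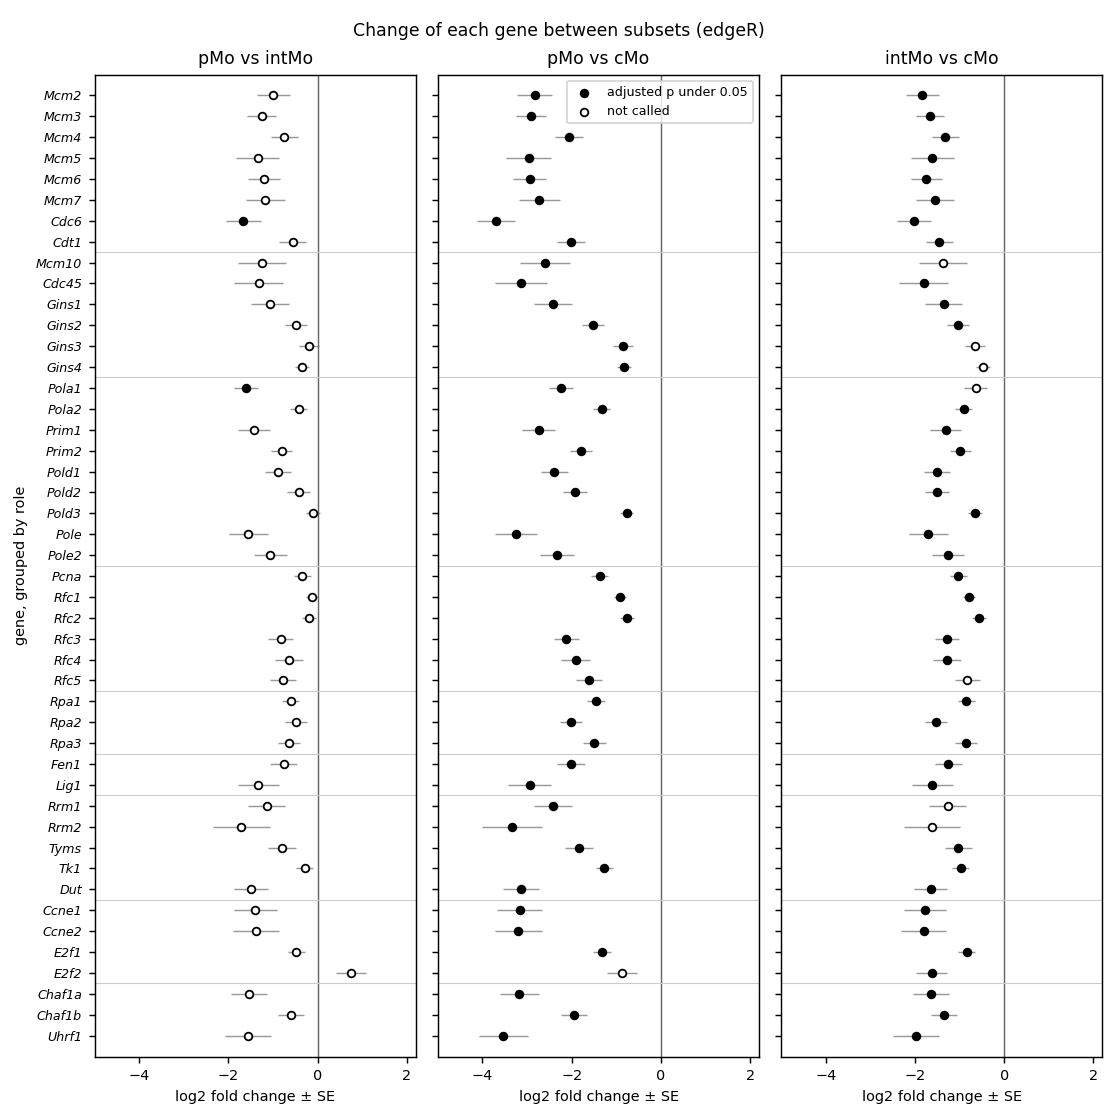
Log2 fold change ± SE (horizontal axis) of each of the 46 genes (rows, grouped by role) in pMo vs intMo, pMo vs cMo and intMo vs cMo, from edgeR. Filled points have an adjusted p under 0.05, which is 2, 45 and 39 genes in the 3 panels, and the point right of 0 is E2f2.

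In the direct comparison of pMo with intMo, 2 of 46 genes were called lower, Cdc6 and Pola1, against 1.69% of all genes. No gene was called higher, against 3.29% of all genes, and none was higher by unadjusted p or by DESeq2. The median log2 change was -0.82, against -0.02 over all genes tested, and 31 genes were lower at an unadjusted p under 0.05. Every pMo library lay below every intMo library for 18 genes, against 12.9% of all genes. The count of calls depended on intMo library 0. It was 28 without that library, 39 without the libraries numbered 0 in each subset, and 0 without pMo library 1 or without pMo library 2. It was 4 without cMo library 0 and 1 without any of the other 5 libraries. DESeq2 called 18. Since libraries of the same number deviated together in pMo and intMo, the number was also fitted as a block, which called 1 gene with all 9 libraries and 21 genes with the pMo and intMo libraries alone. Of all genes, these block fits called 329 and 1353 lower.

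The spread within intMo touched all 46 genes. Library 0 was the lowest intMo library for 46 of 46 genes, and for 28 of them it lay inside or below the range of the pMo libraries. Libraries 1 and 2 of intMo both lay above all pMo libraries for 45 genes, the exception being E2f2, and both lay below all cMo libraries for 46 genes. The shares of all genes with these patterns were not computed. Against the mean log2 level of intMo libraries 1 and 2, library 0 was lower for all 46 genes, and for 6999 of all 14059 genes tested. The summed level of the 46 genes was 1129 to 1177 CPM in pMo, 1072 to 2332 CPM in intMo and 3905 to 6069 CPM in cMo. Relative to libraries 1 and 2 of its own subset, library 0 had a median log2 difference over the 46 genes of -0.13 in pMo, -1.14 in intMo and 0.60 in cMo. Without the libraries numbered 0, the median log2 change was -1.11 in pMo against intMo, -1.93 in pMo against cMo and -0.81 in intMo against cMo, with 39, 46 and 40 genes called lower. Of all genes, 1371, 2552 and 1694 were called lower in that fit, against 238, 2230 and 1467 with all libraries.

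**Figure D5:**
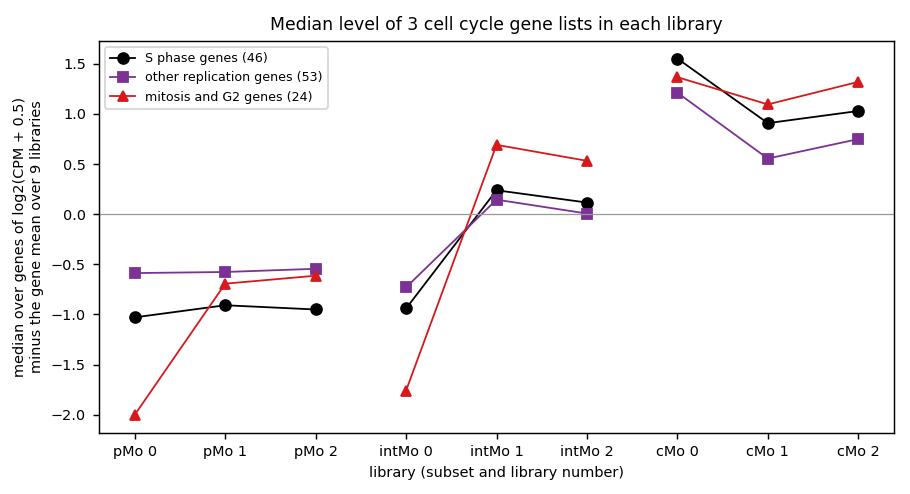
Median over genes of log2(CPM + 0.5) minus the gene's mean over the 9 libraries (vertical axis) for S phase, other replication and mitosis genes in each library (horizontal axis). In pMo library 0 the mitosis median lies well below the S phase median of -1.03, and in intMo library 0 all 3 medians lie below those of intMo libraries 1 and 2.

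Mitosis genes were set beside the S phase genes as the next stage of the cell cycle. Of 24 mitosis and G2 genes, 23 were called lower in pMo than in cMo, against 15.9% of all genes, with a median log2 change of -2.33. In intMo against cMo their median was -1.11 and edgeR called 0, with 4 lower at an unadjusted p under 0.05, 3 by DESeq2 and 21 without the libraries numbered 0. In pMo against intMo their median was -1.19 and edgeR called 0, with 7 lower at an unadjusted p under 0.05, 0 by DESeq2 and 23 without the libraries numbered 0. Of all genes, 1694 and 1371 were called lower in these 2 comparisons without the libraries numbered 0, against 1467 and 238 with all libraries. Mki67, which encodes the proliferation antigen Ki-67, had 81.4, 153 and 202 CPM in pMo libraries 0, 1 and 2, 93.1, 492 and 555 CPM in intMo, and 652, 1011 and 988 CPM in cMo. Library 0 was the lowest of its subset in each case. In pMo, mitosis genes in library 0 were lower than in libraries 1 and 2 for 24 of 24 genes (median -1.32), while S phase genes were lower for 27 of 46 (median -0.13). In cMo, S phase genes were higher in library 0 for 46 of 46 (median 0.60) and mitosis genes for 16 of 24 (median 0.15). Of all 14059 genes tested, library 0 was lower for 7028 in pMo and higher for 7329 in cMo. The 27 of 46 in pMo is thus near the share of all genes.

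Of 53 other replication genes, most were also lower. Of the 53 tested, 41 were called lower and 3 higher in pMo than in cMo (median log2 change -1.40), and 31 lower and 3 higher in intMo than in cMo (median -1.04). Of all genes, 15.9% were lower and 17.2% higher in pMo than in cMo, and 10.4% lower and 14.0% higher in intMo than in cMo. In pMo against intMo edgeR called 0 (median -0.46), with 16 lower at an unadjusted p under 0.05 and 5 by DESeq2. Without the libraries numbered 0, 32 of the 53 were called lower in this comparison, as were 1371 of all genes. Among the lowest in pMo against cMo were the repair nuclease Exo1 (log2 change -3.58 ± 0.48) and the checkpoint mediator Clspn (-3.28 ± 0.54), with edgeR adjusted p of 0.000798 and 0.00212. The 3 higher genes were Tk2, Pold4 and Rrm2b. Tk2, the mitochondrial thymidine kinase, had 47.7, 39.0 and 43.4 CPM in pMo libraries 0, 1 and 2, 66.5, 47.1 and 43.8 CPM in intMo, and 24.2, 29.0 and 29.6 CPM in cMo. Rrm2b, the p53-induced small subunit of ribonucleotide reductase, had 16.4, 16.9 and 18.9 CPM in pMo, 16.5, 16.6 and 17.6 CPM in intMo and 10.7, 12.4 and 12.9 CPM in cMo. Rrm2b changed by 0.54 ± 0.14 on the log2 scale in pMo against cMo (edgeR, adjusted p = 0.0171), while Rrm2 changed by -3.33. Pold4, the smallest polymerase delta subunit, averaged 42.1 ± 2.43 CPM in pMo, 42.3 ± 4.57 CPM in intMo and 27.0 ± 5.18 CPM in cMo (SD, n = 3 each). Its log2 change was 0.64 ± 0.16 in pMo against cMo (edgeR, adjusted p = 0.0139), while those of Pold1, Pold2 and Pold3 were negative. The Tk2 call in pMo against cMo was lost without pMo library 0 or 2 or cMo library 0 (adjusted p up to 0.0652), that of Pold4 without pMo library 1 (adjusted p = 0.0531) and that of Rrm2b without pMo library 1 or 2 (adjusted p up to 0.0705).

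Of 32 G1/S regulators tested of 35 listed, 15 were called lower in pMo than in cMo, against 15.9% of all genes, and 12 lower in intMo than in cMo, against 10.4%. In pMo against cMo 6 of 32 were called higher, a share near the 17.2% of all genes, and in intMo against cMo 2 of 32, against 14.0%. The higher genes below are therefore given as single values and not as a result about the list. The 3 lowest in pMo against cMo were Mybl2, a MYB factor of the cell cycle (log2 change -3.58 ± 0.53), and the repressive E2F factors E2f8 (-2.83 ± 0.56) and E2f7 (-2.71 ± 0.51), with edgeR adjusted p of 0.00131, 0.00501 and 0.00411. Rb1, the pocket protein that restrains E2F, had 144, 149.8 and 159 CPM in pMo libraries 0, 1 and 2, 86.8, 93.8 and 89.6 CPM in intMo, and 65.1, 89.6 and 84.8 CPM in cMo. Every pMo library lay above all others, while intMo and cMo overlapped. Rb1 was the 1 regulator called in pMo against intMo, with a log2 change of 0.74 ± 0.14 (edgeR, adjusted p = 0.0159), and it was 0.92 ± 0.14 in pMo against cMo (adjusted p = 0.00126). The call in pMo against intMo was lost without pMo library 1 or 2 and without intMo library 1 or 2, at an adjusted p of up to 0.077. With all libraries, 4 of the 32 were lower and 2 higher in this comparison at an unadjusted p under 0.05 (edgeR). Without the libraries numbered 0, 11 of the 32 were called lower and 4 higher, as were 1371 and 1053 of all genes.

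Genes of 2 inhibitors of cyclin-dependent kinases were also higher in pMo than in cMo. Cdkn1b, which encodes p27, had 206, 237 and 241 CPM in pMo libraries 0, 1 and 2, 186, 215 and 198 CPM in intMo, and 105, 138 and 156 CPM in cMo. Both pMo and intMo lay above cMo, by log2 changes of 0.78 ± 0.16 and 0.59 ± 0.16 (edgeR, adjusted p = 0.00547 and 0.0251). The second of these calls was lost without intMo library 1 or 2 or cMo library 1 (adjusted p up to 0.0679). Cdkn1a, which encodes p21, rose by 0.53 ± 0.15 in pMo against cMo (edgeR, adjusted p = 0.0217), a call lost without any of the pMo libraries or without cMo library 1 or 2 (adjusted p up to 0.0622). The pocket protein Rbl2 rose by 0.40 ± 0.11 in pMo against cMo (edgeR, adjusted p = 0.0181), a call lost without pMo library 0 or 1 or cMo library 2 (adjusted p up to 0.0778). Samhd1, an enzyme that breaks down dNTPs, had 1345, 1620.0 and 1606 CPM in pMo, 835, 1125 and 1173 CPM in intMo and 485, 932 and 882 CPM in cMo. Its log2 change was 0.99 ± 0.24 in pMo against cMo (edgeR, adjusted p = 0.0132). The D cyclins differed, as Ccnd2 was higher in pMo than in cMo by 1.58 ± 0.47 (edgeR, adjusted p = 0.0287) and Ccnd1 higher in intMo than in cMo by 1.76 ± 0.41 (edgeR, adjusted p = 0.0157). Ccnd2 had 139, 77.2 and 77.6 CPM in pMo libraries 0, 1 and 2, 40.3, 52.5 and 55.9 CPM in intMo, and 60.9, 19.1 and 18.1 CPM in cMo. Its call was lost without pMo library 0 or without cMo library 1 or 2 (adjusted p up to 0.0933), and the Ccnd1 call without cMo library 2 (adjusted p = 0.0522).

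Markers of other cells also differed between the subsets. The summed level of 12 granulocyte and progenitor markers was 382 to 1139 CPM in pMo, 354 to 1598 CPM in intMo and 1506 to 8113 CPM in cMo, with its highest value in cMo library 0. Of these 12, 7 were called lower in pMo than in cMo, against 15.9% of all genes, and none higher. In intMo against cMo 5 were called lower, against 10.4% of all genes, and none higher. Without the libraries numbered 0, 7 were lower and 3 higher in pMo than in cMo, and 7 lower and 4 higher in intMo than in cMo. In that fit, 2552 of all genes were lower and 2797 higher in pMo than in cMo, and 1694 lower and 2242 higher in intMo than in cMo. None of the 12 was at 0 in a whole subset. The most abundant, the neutrophil granule gene Ngp, had 159, 551 and 580 CPM in pMo libraries 0, 1 and 2, 128, 636 and 646 CPM in intMo, and 1849.5 CPM in library 0 against 174 and 202 CPM in libraries 1 and 2 of cMo. The summed level of 12 feeder stroma markers was 233 to 428 CPM in pMo, 199 to 619 CPM in intMo and 20.8 to 24.2 CPM in cMo. Of 10 tested, 10 were called higher in pMo and 10 higher in intMo than in cMo, led by Cxcl12 at 79.1 ± 13.4 CPM in pMo, 93.9 ± 38.6 CPM in intMo and 2.81 ± 0.742 CPM in cMo (SD, n = 3 each). Of all genes, 17.2% were called higher in pMo and 14.0% higher in intMo than in cMo. Dcn was at 0 in each subset, and Lum at 0 in cMo. Summed levels of 11 lymphoid markers stayed between 19.8 and 58.6 CPM, and those of 10 erythroid, mast cell and eosinophil markers between 3.45 and 23.0 CPM, over the 9 libraries. Mitochondrial transcripts summed to 16077 to 23993 CPM in pMo, 22099 to 22767 CPM in intMo and 22103 to 33335 CPM in cMo. The part of these other cells in the S phase differences was not tested.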

How the data were processed

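RNA sequencing was done on 9 libraries of in vitro mouse monocytes, made with RNAzol and the stranded NEBNext Ultra II mRNA kit, per the labels' protocols. The authors deposited a gene table of estimated counts, made with kallisto 0.46.1 on mm10, per the submitters' processing notes. Not given in the sources used here are the transcript annotation, how transcripts were summed to genes, the strand setting and whether a filter was applied. Symbols, coordinates and transcript lengths came from GENCODE M21 (GRCm38, the same build as mm10), and CPM per kb uses the median length of a gene's protein-coding transcripts.

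Counts were rounded, filtered with filterByExpr by subset, scaled by TMM and fitted over all 9 libraries with edgeR 4.0.16 (quasi-likelihood F test, robust, R 4.3.3), after a test on simulated data. Calls required an adjusted p under 0.05 (Benjamini-Hochberg, over the 14059 genes tested). The standard error is the size of the log2 change divided by the square root of F. DESeq2 1.42.0, other scalings and filters, and fits without each library were alternatives.

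Within each role, the genes given by library are the one highest per length, the one with the largest change in pMo against cMo, and any called in no comparison or against the majority. In the other replication and regulator lists they are the 3 largest called changes in each direction and called genes against the majority, and in the mitosis and marker lists the most abundant. A gene that this rule names is not reported here. The members and lists were chosen with earlier results of these data known.

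Whether library numbers pair the libraries was checked by correlating deviations from the subset means across genes. Between pMo and intMo the correlations were 0.588, 0.300 and 0.274 for numbers 0, 1 and 2, so the number was fitted as a replicate block in alternative runs. The main fit had no block, and values are from it unless another fit is named.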

Additional observations from a re-analysis of the deposited data

How the results depend on the processing

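No log2 change of a gene past the threshold changed sign under any alternative run. In pMo against cMo, 44 to 46 of the 46 genes were called lower in each alternative. In pMo against intMo the count of genes called lower, 2, was 5 with upper quartile scaling, 18 with DESeq2, 39 with libraries 1 and 2 alone, 1 when the other subset was left out of the fit, and 0 to 28 when 1 library was left out. Over all genes, 238 were lower and 463 higher in this comparison, against 611 and 741 with DESeq2, 1371 and 1053 with libraries 1 and 2 alone, and 51 to 457 and 170 to 650 without 1 library. Higher calls thus outnumbered lower ones with all libraries, and lower outnumbered higher with libraries 1 and 2 alone and without intMo library 0 (433 and 424). In intMo against cMo, 39 genes were called lower, against 24 when pMo was left out of the fit and 22 to 41 without 1 library. All genes called lower in intMo against cMo numbered 1467, against 782 when pMo was left out and 832 to 1357 without 1 library. Of all genes, 1335 to 2385 were called lower in pMo against cMo without 1 library, and 2230 with all. The median of all genes shifted by less than 0.1 on the log2 scale under each scaling. The cause of these shifts was not tested.

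With the library number as a replicate block, 1, 45 and 37 genes were called lower in pMo against intMo, pMo against cMo and intMo against cMo. A block in fits of the compared subsets alone, chosen after seeing the data, called 21, 46 and 2 genes, and over all genes 1353 lower and 1236 higher in pMo against intMo, where lower calls again outnumber higher ones, and 330 lower and 1035 higher in intMo against cMo. Same-numbered intMo and cMo libraries did not deviate together (0.0657, -0.143 and -0.0694), nor did all numbers in pMo and cMo (0.179, -0.0156 and 0.230). The lowest member value was 46 counts, of Ccne2 in intMo library 0. Counting error was not compared with the spread between libraries.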

Other observations

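The origin recognition complex marks the sites where MCM rings are loaded. Of its 6 genes, 3 were called lower in pMo than in cMo, against 15.9% of all genes. The genes of this complex were chosen after their values were seen. Orc1 had 1.48, 1.26 and 1.49 CPM in pMo libraries 0, 1 and 2, 1.07, 3.10 and 2.92 CPM in intMo, and 16.7, 7.63 and 8.39 CPM in cMo, with a log2 change of -2.95 ± 0.45 in pMo against cMo (edgeR, adjusted p = 0.00148). Orc6 changed by -1.85 ± 0.30 (edgeR, adjusted p = 0.00188) and Orc2 by -0.77 ± 0.16 (adjusted p = 0.00689). The log2 changes of Orc3, Orc4 and Orc5 in pMo against cMo were -0.08 ± 0.12, 0.12 ± 0.21 and -0.35 ± 0.17, and the pMo and cMo libraries overlapped (edgeR, adjusted p = 0.649, 0.70 and 0.14). The difference between Orc1 and these 3 genes was not tested.

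Pttg1, which encodes securin, was the mitosis gene not called in pMo against cMo. It had 23.7, 36.3 and 34.5 CPM in pMo libraries 0, 1 and 2, 18.7, 36.2 and 28.0 CPM in intMo, and 19.3, 18.04 and 23.0 CPM in cMo. Its log2 change was 0.65 ± 0.25 (edgeR, adjusted p = 0.0789), and every pMo library lay above every cMo library.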
